A study of Homo sapiens with 6 samples.

Results

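Cells take up glucose, split it to pyruvate, exchange lactate with their surroundings and decide how much pyruvate enters mitochondria. The genes described here are 34 symbols listed for these steps, out of 27852 symbols in the deposited table once each transcript was counted a single time and summed. All 34 were in the table, and 33 passed the filter on low counts, among 13236 symbols tested. The RNA was from HSC3, HSC4 and SAS, cultured cell lines established from human squamous carcinomas of the mouth. Every line was sequenced once after growth in DMEM, a basic culture medium, and once after growth in HPLM, a medium modelled on the small molecules of blood plasma. Both media held heat-inactivated fetal bovine serum and an antibiotic mix. With 6 libraries in all, the 3 lines act as replicates of a medium and the 2 media as replicates of a line. The labels give no glucose level or culture time and name no allele or drug. Nothing says that cultures were repeated, so p-values measure only the spread between these 6 samples.

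In glycolysis, transporters and hexokinases bring in and trap glucose, phosphofructokinase commits it to breakdown, and the later enzymes harvest ATP and end in pyruvate. Lactate dehydrogenase interconverts pyruvate and lactate, monocarboxylate transporters carry lactate across the membrane, and pyruvate dehydrogenase kinases hold back the enzyme that feeds the citric acid cycle. Squamous tumours are known for high glucose uptake, and several of these genes are textbook targets of the hypoxia-inducible factor HIF-1.

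Library totals lay between 17715962 and 20171750 estimated counts. Levels are counts per 1000000 (CPM), scaled between libraries by the trimmed mean of M values (TMM). The deposited values are corrected for transcript length, so the levels of different genes, summed over all their transcripts, can be compared. In each pair of values below, DMEM comes first and HPLM second. As a check of the labelled cell type, 6 epithelial markers summed to 2137 to 4704 CPM, with EPCAM at 0.28 ± 0.10 and KRT5 at −0.38 ± 0.15 as log2 fold change ± SE of HPLM over DMEM. Fibroblast markers (6 genes, 4 under 1 CPM in every library, COL3A1 at 0) summed to 1.78 to 5.97 CPM, with COL1A1 at 0.06 ± 0.24, and endothelial markers (4 genes, KDR at 0) to 0.308 to 2.49 CPM. Leukocyte markers (6 genes, 3 under 1 CPM in every library) summed to 44.2 to 85.8 CPM, mostly from the lysosomal gene CD68 (0.27 ± 0.09), with CD14 at 0.30 ± 0.44, and this sum was higher in HPLM in each line. Their part in the results was not tested. In bulk RNA, fewer cells of a kind and less RNA per cell cannot be told apart.

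The levels of the genes spanned a wide range. GAPDH, the dehydrogenase that oxidises glyceraldehyde 3-phosphate, was the highest, at 4719 and 4568 CPM in HSC3, 3321 and 3156 CPM in HSC4 and 5104 and 4651 CPM in SAS. ENO1 (the main enolase), PKM (pyruvate kinase), ALDOA (aldolase A), LDHA and LDHB (lactate dehydrogenase subunits) came next, and with GAPDH these 6 genes made up 78.2% to 81.9% of the sum of the 34 in a library. PDK4, a pyruvate dehydrogenase kinase known from fasting tissues, was at 0 in all 6 libraries. A count of 0 allows up to 3 counts, or at most 0.169 CPM before scaling, as a limit for counting error that is approximate for estimated counts. HKDC1, a hexokinase relative, stood at 2.46 and 0.462 CPM in HSC3, 1.72 and 2.49 CPM in HSC4 and 0.0539 and 0.0530 CPM in SAS, so that SAS lay under that limit.

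**Figure D1:**
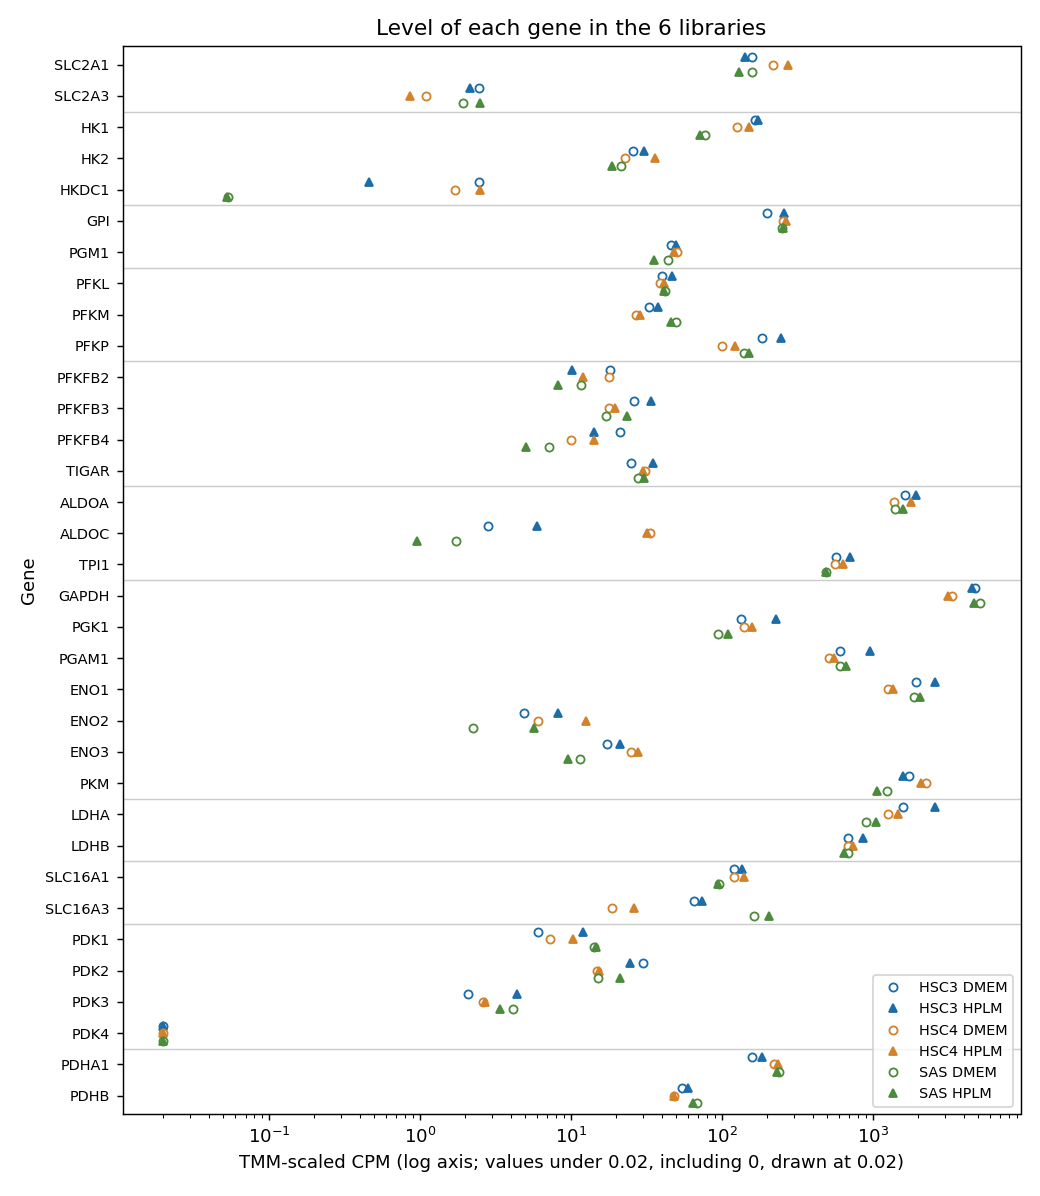
Level of each of the 34 genes in TMM-scaled CPM on a log axis, with markers for the medium and colours for the line; values under 0.02 are drawn at 0.02. The levels run from 0 for PDK4 to 5104 CPM for GAPDH in SAS in DMEM, and for SLC16A3 and ALDOC the lines lie further apart than the media.

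Summed, the 34 genes took 1.46% and 1.70% of the library in HSC3, 1.39% and 1.41% of it in HSC4, and 1.37% and 1.29% of it in SAS. The differences, HPLM minus DMEM, were 0.241, 0.0210 and −0.0847 percentage points, so HSC3 and HSC4 were higher in HPLM and SAS was lower. Their mean was 0.0590 points ± 0.166 (SD, n = 3 lines; exact two-sided sign-flip permutation p = 0.75, the smallest possible being 0.25). Without HSC3 the mean was −0.0319 points. These shares are before scaling. With TMM scaling the mean was 0.107 points ± 0.137 (exact sign-flip permutation p = 0.5), with SAS at −0.0115. Without GAPDH and without scaling it was 0.0986 points ± 0.142 (exact sign-flip permutation p = 0.5), with SAS at −0.0151.

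PKM shows which splice form these cells make. Its locus (chromosome 15, 72199029 to 72231822, minus strand of GRCh38, GENCODE 29) holds 2 neighbouring exons of 167 bases of which a transcript carries at most 1. The upstream exon gives the M1 form known from muscle and brain, and the downstream exon the M2 form known from proliferating and tumour cells. Both are printed because the split of PKM rests on them, read 5′ to 3′ on the transcript strand, and they are identical at 105 bases. The M1 exon is chr15:72203022-72203188 and the M2 exon chr15:72202454-72202620.
PKM M1 exon: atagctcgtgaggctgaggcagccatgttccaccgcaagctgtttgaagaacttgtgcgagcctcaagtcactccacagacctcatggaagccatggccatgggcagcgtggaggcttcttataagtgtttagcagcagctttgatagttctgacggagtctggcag
PKM M2 exon: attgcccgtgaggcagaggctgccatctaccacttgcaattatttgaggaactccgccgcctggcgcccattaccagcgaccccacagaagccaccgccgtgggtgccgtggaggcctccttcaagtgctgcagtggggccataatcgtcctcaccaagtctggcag
Transcripts with the M2 exon took 91.4% of PKM in both media in HSC3, 91.6% and 92.2% of it in HSC4, and 91.5% and 90.9% of it in SAS. Transcripts with the M1 exon took 1.89% to 2.62%, and the rest fell on 15 transcripts with neither. M2 was therefore the main form in all 6 libraries. Over all forms PKM stood at 1744 and 1578 CPM in HSC3, 2247 and 2079 CPM in HSC4 and 1234 and 1066 CPM in SAS, lower in HPLM in each line (edgeR log2 fold change −0.16 ± 0.08 SE, adjusted p = 0.566).

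Several genes drew much of their value from transcripts that GENCODE 29 does not class as protein coding. For PGK1 (phosphoglycerate kinase; chromosome X, 77910739 to 78129296) a processed transcript, PGK1-205, took 78.9% to 80.7%. Protein-coding transcripts made up 27.8% to 38.9% of ALDOA and 55.7% to 60.8% of PDHA1, the E1 alpha subunit of pyruvate dehydrogenase. They made up 37.55% to 48.02% of PFKFB4 and 55.9% to 67.9% of PDK2. For the low genes SLC2A3, ALDOC and HKDC1 they made up 32.6% to 78.6%, 53.9% to 100% and 0% to 100%. With protein-coding transcripts alone, ALDOA lay under LDHB in every library. These splits between transcripts are estimates. Pseudogene copies added at most 8.27% to the sum of gene and copies for SLC2A3. They added at most 0.542% for PGAM1, 0.232% for TPI1 and 0.170% for GAPDH.

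The comparison of media asked which of these genes differ between HPLM and DMEM, with the line as a block. At an adjusted p under 0.05 (edgeR, Benjamini-Hochberg over all genes) 0 of the 33 passed, where 0.00756% of all tested genes did. DESeq2, limma-voom and limma-trend also called 0 of the 33. At an unadjusted p under 0.05, 8 differed (24.2%, background 10.1%), 7 of them higher in HPLM (21.2%, background 5.57%) and 1 lower (3.03%, background 4.55%). With no scaling factor these were 3 higher and 2 lower. The 7 became 3 without HSC3 and 4 without HSC4, and the 1 became 2 without HSC4. With protein-coding transcripts of the 34 genes alone, an alternative chosen after seeing the data, the count stayed at 7, but PGK1 left it (0.39 ± 0.17 SE, edgeR adjusted p = 0.505) and PDK1 entered it (0.65 ± 0.19 SE, edgeR adjusted p = 0.4002). The log2 fold change was above 0 for 25 of 33 (75.8%, background 50.1%). All 3 lines had a ratio above 0 for 11 (33.3%, background 16.9%) and below 0 for 3 (9.09%, background 17.2%). With no scaling factor these counts were 9 and 3. The median was 0.12 on the log2 scale, against 0.00 for all genes tested, and by line 0.24 for HSC3, 0.12 for HSC4 and −0.01 for SAS. It was 0.04 without HSC3 and 0.22 without SAS.

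**Figure D2:**
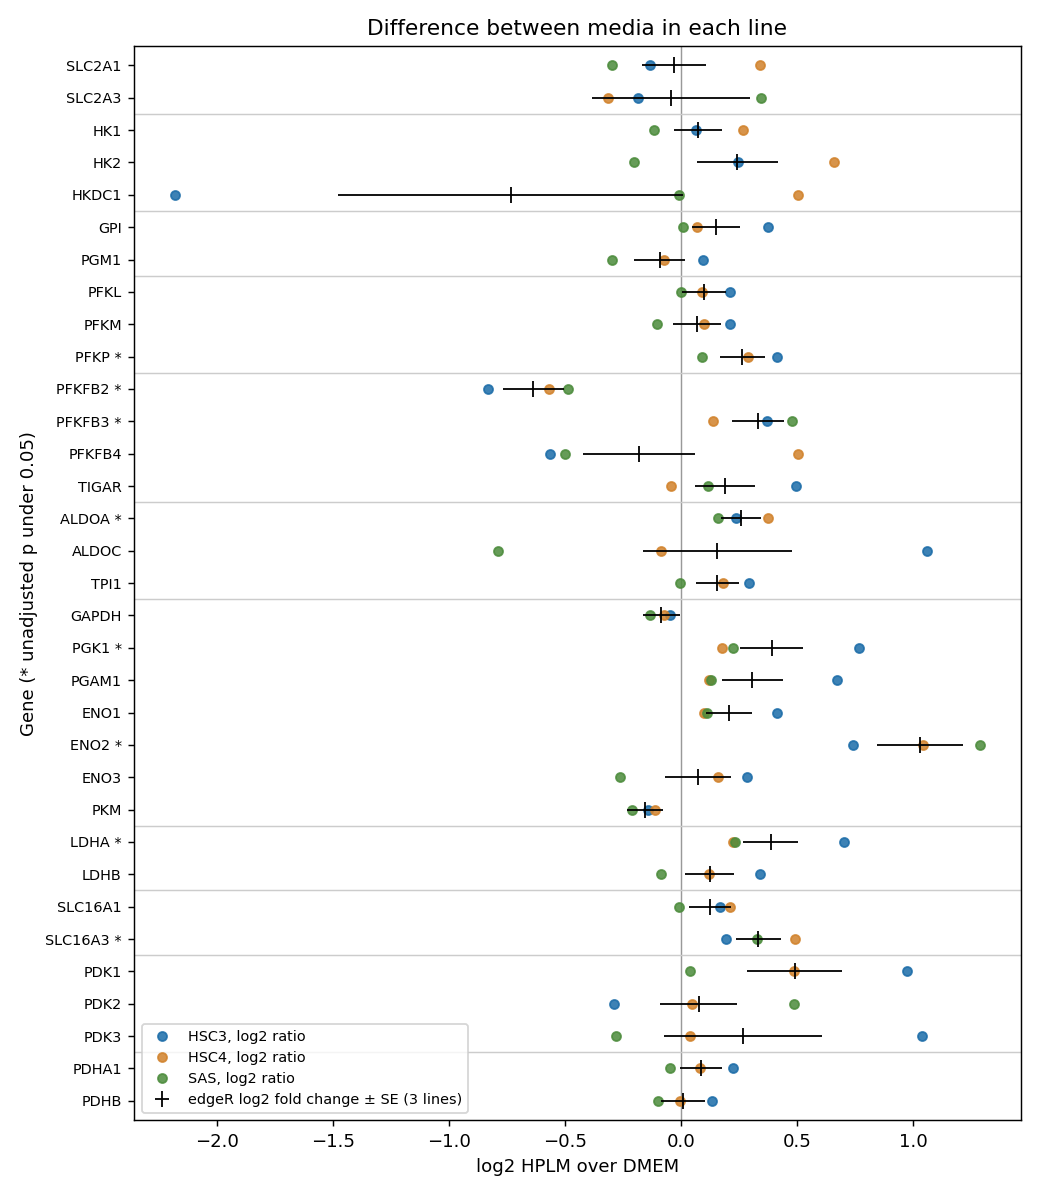
Log2 ratio of HPLM over DMEM for the 33 tested genes, with 1 coloured point per line and the edgeR log2 fold change ± SE in black; an asterisk marks an unadjusted p under 0.05. The 7 genes higher in HPLM at that level have all 3 points above 0, and PFKFB2 has all 3 below 0.

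For glucose uptake and trapping no gene reached an unadjusted p under 0.05. SLC2A1, the main glucose transporter of epithelial cells (GLUT1), stood at 157 and 143 CPM in HSC3, 217 and 274 CPM in HSC4 and 159 and 129 CPM in SAS. It was higher in HPLM in HSC4 and lower in the other lines (edgeR log2 fold change −0.03 ± 0.14 SE, adjusted p = 0.958). SLC2A3 (GLUT3) lay between 0.865 and 2.49 CPM. HK1, the hexokinase of most tissues, stood at 166 and 174 CPM in HSC3, 126 and 152 CPM in HSC4 and 77.4 and 71.4 CPM in SAS (edgeR log2 fold change 0.07 ± 0.10 SE, adjusted p = 0.854), and of the lines only SAS was lower in HPLM. HK2, the form often raised in tumours, had log2 ratios of 0.25 for HSC3, 0.66 for HSC4 and −0.20 for SAS. GPI, which turns glucose 6-phosphate into fructose 6-phosphate, was higher in HPLM in all 3 lines (log2 fold change 0.15 ± 0.10), in SAS only after scaling. PGM1, the link to glycogen, had a log2 fold change of −0.09 ± 0.11.

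At the committed step, the platelet-type phosphofructokinase PFKP (chromosome 10, 3066333 to 3137712) stood at 186 and 247 CPM in HSC3, 101 and 123 CPM in HSC4 and 141 and 151 CPM in SAS. All 3 lines were higher in HPLM, and the media overlapped across lines (edgeR log2 fold change 0.26 ± 0.10 SE, adjusted p = 0.459). The liver type PFKL had 0.10 ± 0.10 and the muscle type PFKM 0.07 ± 0.10 as log2 fold changes.

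The PFKFB enzymes make and remove fructose 2,6-bisphosphate, a strong activator of phosphofructokinase, and they parted by gene. PFKFB2 (chromosome 1, 207034366 to 207081024), the form known from heart, stood at 18.1 and 10.1 CPM in HSC3, 17.9 and 12.1 CPM in HSC4 and 11.6 and 8.27 CPM in SAS. It was lower in HPLM in every line, and the media overlapped through SAS (edgeR log2 fold change −0.64 ± 0.13 SE, adjusted p = 0.362). With protein-coding transcripts alone the log2 fold change of PFKFB2 was −0.45 ± 0.14 SE (edgeR adjusted p = 0.404). PFKFB3 (chromosome 10, 6144934 to 6254644), the form that favours synthesis of the activator, stood at 26.2 and 33.9 CPM in HSC3, 17.9 and 19.7 CPM in HSC4 and 17.0 and 23.7 CPM in SAS. It was higher in HPLM in every line, with overlap across lines (edgeR log2 fold change 0.33 ± 0.11 SE, adjusted p = 0.434). PFKFB4 had log2 ratios of −0.56 for HSC3, 0.50 for HSC4 and −0.50 for SAS, and TIGAR, a p53 target that lowers the activator, 0.49 for HSC3, −0.04 for HSC4 and 0.11 for SAS.

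In the middle and late steps, ALDOA (chromosome 16, 30064164 to 30070457), which splits fructose 1,6-bisphosphate, stood at 1637 and 1929.7 CPM in HSC3, 1374 and 1782 CPM in HSC4 and 1413 and 1579 CPM in SAS (edgeR log2 fold change 0.26 ± 0.09 SE, adjusted p = 0.425). PGK1, the first step that makes ATP, stood at 133 and 227 CPM in HSC3, 140.4 and 159 CPM in HSC4 and 94.1 and 109.9 CPM in SAS (edgeR log2 fold change 0.39 ± 0.14 SE, adjusted p = 0.446). ENO1 stood at 1934 and 2572 CPM in HSC3, 1266 and 1354 CPM in HSC4 and 1888 and 2041 CPM in SAS (edgeR log2 fold change 0.21 ± 0.10 SE, adjusted p = 0.548). In these 3 genes every line was higher in HPLM and the media overlapped across lines. ENO2, the enolase known from neurons (chromosome 12, 6913745 to 6923698), was low, at 4.87 and 8.21 CPM in HSC3, 6.07 and 12.6 CPM in HSC4 and 2.26 and 5.67 CPM in SAS. Every line was higher in HPLM, and the media overlapped only because the HPLM value of SAS lay under the DMEM value of HSC4 (edgeR log2 fold change 1.03 ± 0.19 SE, adjusted p = 0.315). This was the fold change furthest from 0 among the 33. As log2 fold changes, TPI1, which balances the triose phosphates, had 0.16 ± 0.09, the mutase PGAM1 0.31 ± 0.13, the muscle enolase ENO3 0.07 ± 0.14 and GAPDH, often used as a reference gene, −0.08 ± 0.08.

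For lactate, LDHA (chromosome 11, 18394388 to 18408425), the subunit associated with lactate formation, stood at 1575 and 2562 CPM in HSC3, 1254 and 1462 CPM in HSC4 and 896 and 1052 CPM in SAS. Each line was higher in HPLM, with overlap across lines and log2 ratios of 0.70 for HSC3, 0.22 for HSC4 and 0.23 for SAS (edgeR log2 fold change 0.39 ± 0.12 SE, adjusted p = 0.411). LDHB, the subunit associated with lactate use, had log2 ratios of 0.34 for HSC3, 0.12 for HSC4 and −0.09 for SAS. SLC16A3 (chromosome 17, 82228397 to 82261129), the lactate exporter MCT4, stood at 65.0 and 74.3 CPM in HSC3, 18.7 and 26.4 CPM in HSC4 and 163 and 205 CPM in SAS (edgeR log2 fold change 0.33 ± 0.10 SE, adjusted p = 0.404). SLC16A1, the bidirectional carrier MCT1, stood at 121 and 135 CPM in HSC3, 121 and 141 CPM in HSC4 and 95.3 and 94.6 CPM in SAS (edgeR log2 fold change 0.12 ± 0.09 SE, adjusted p = 0.684). Every line was higher in HPLM for SLC16A3, and SAS was not for SLC16A1.

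At the gate to mitochondria, PDK1, a known HIF-1 target, stood at 6.07 and 12.0 CPM in HSC3, 7.31 and 10.3 CPM in HSC4 and 14.2 and 14.6 CPM in SAS. It was higher in HPLM in each line, in SAS only after scaling (edgeR log2 fold change 0.49 ± 0.20 SE, adjusted p = 0.501). PDK2, the kinase with the highest mean level, stood at 30.05 and 24.6 CPM in HSC3, 14.9 and 15.3 CPM in HSC4 and 15.2 and 21.3 CPM in SAS. Here HSC3 was lower in HPLM and the other lines were higher (edgeR log2 fold change 0.08 ± 0.17 SE, adjusted p = 0.915). PDK3 had log2 ratios of 1.04 for HSC3, 0.04 for HSC4 and −0.28 for SAS. PDHA1 stood at 159 and 186 CPM in HSC3, 223 and 236 CPM in HSC4 and 239 and 231 CPM in SAS (edgeR log2 fold change 0.09 ± 0.09 SE, adjusted p = 0.790), and PDHB, the beta subunit, had 0.01 ± 0.09.

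Shares within a family set relatives side by side inside a library and do not depend on scaling. They are given as a description, with no test. PFKFB2 made up 27.7% and 17.3% for HSC3, 39.1% and 26.2% for HSC4 and 32.6% and 22.4% for SAS of the PFKFB enzymes. Its share was lower in HPLM in each line, by a mean of −11.1 percentage points ± 1.57 (SD, n = 3 lines), and the ranges of the media did not overlap. PFKFB3 made up 40.1% and 58.3% for HSC3, 39.1% and 42.9% for HSC4 and 47.5% and 63.9% for SAS, with a mean difference of 12.8 points ± 7.84 (SD, n = 3 lines), and led its family in HPLM in all 3 lines. PFKFB4 moved by −7.84, 9.13 and −6.30 points in HSC3, HSC4 and SAS.

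**Figure D3:**
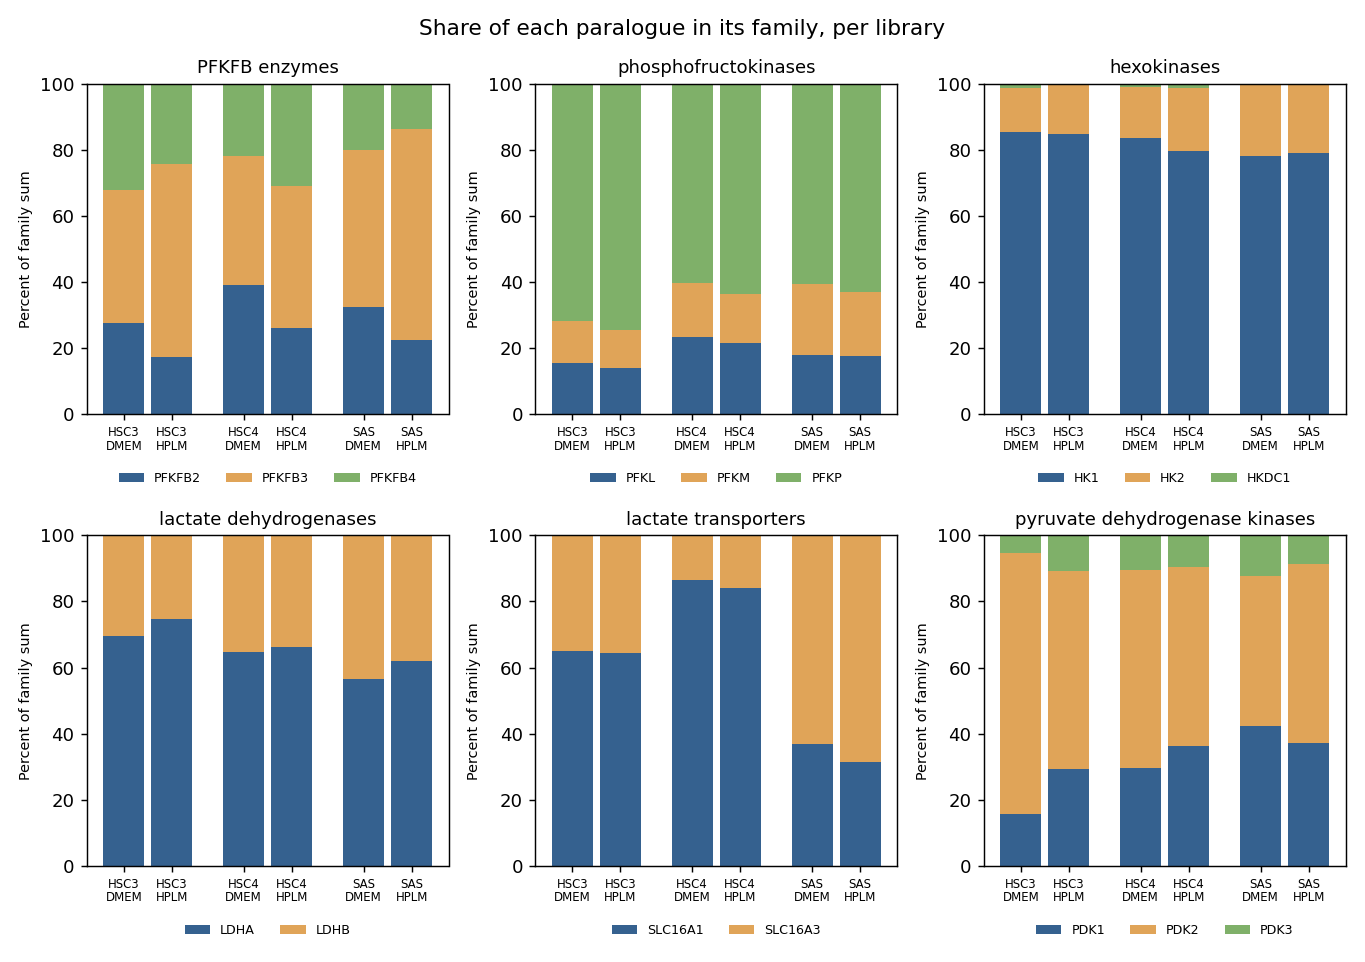
Stacked bars of the percent that each paralogue takes of its family sum in the 6 libraries, each bar summing to 100%. The PFKFB2 segment is shorter in HPLM than in DMEM in each line, and SLC16A1 takes 86.6% in HSC4 and 36.8% in SAS in DMEM.

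Over all transcripts, the other families had the same leading gene in both media of a line. PFKP took 60.5% to 74.6% of the phosphofructokinases, with a mean difference of 2.77 points ± 0.369 (SD, n = 3 lines). LDHA took 69.7% and 74.7% for HSC3, 64.7% and 66.2% for HSC4 and 56.7% and 62.0% for SAS of the lactate dehydrogenases, 3.98 points ± 2.07 on average (SD, n = 3 lines). HK1 took 78.2% to 85.5% of the hexokinases, and SLC2A1, ALDOA and ENO1 took at least 98.1%, 97.6% and 97.1% of the listed genes of their families. PDK1 took 15.8% and 29.3% for HSC3, 29.5% and 36.3% for HSC4 and 42.4% and 37.1% for SAS of the pyruvate dehydrogenase kinases. Over all transcripts PDK2 led these kinases in every library. With protein-coding transcripts alone, PDK1 lay above PDK2 in SAS in both media and in HSC4 in HPLM.

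More genes passed between lines than between media. By the edgeR F test over lines 21 of the 33 passed an adjusted p under 0.05 (63.6%, background 57.6%), a share near that of all genes. The count was 12 without the HPLM library of HSC4, and 15 to 17 without any other single library. Between HSC3 and HSC4 12 passed (36.4%, background 37.4%), 8 higher in HSC3 (background 18.6%) and 4 lower (background 18.8%). Between HSC3 and SAS 16 passed (48.5%, background 39.4%), 13 higher in HSC3 (background 20.6%) and 3 lower (background 18.8%). Between HSC4 and SAS 18 passed (54.5%, background 41.3%), 12 higher in HSC4 (background 21.3%) and 6 lower (background 20%). Without any 1 of the 4 libraries of the compared lines these counts were 4 to 7, 5 to 9 and 8 to 10.

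SLC16A3 had the smallest F-test p (edgeR adjusted p = 0.000273). Both SAS libraries lay above both of HSC3, and those above both of HSC4. The log2 difference ± SE was 1.64 ± 0.12 for HSC3 minus HSC4, −1.40 ± 0.12 for HSC3 minus SAS and −3.04 ± 0.13 for HSC4 minus SAS (edgeR adjusted p = 0.000903, 0.000951 and 0.000256). SLC16A1 ran the other way in SAS, which lay under HSC3 (0.43 ± 0.11, edgeR adjusted p = 0.0269) and HSC4 (0.46 ± 0.11, edgeR adjusted p = 0.0207), though the F-test call of SLC16A1 was lost without the DMEM library of SAS or any 1 HPLM library. Of the 2 carriers together, SLC16A1 took 65.0% and 64.6% for HSC3, 86.6% and 84.2% for HSC4 and 36.8% and 31.6% for SAS. MCT1 transcripts thus led in HSC3 and HSC4 and MCT4 transcripts in SAS, in both media.

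ALDOC, the aldolase known from brain, stood at 2.83 and 6.002 CPM in HSC3, 33.7 and 31.7 CPM in HSC4 and 1.72 and 0.955 CPM in SAS, with HSC4 above the other lines. HSC3 minus HSC4 was −2.91 ± 0.37 and HSC4 minus SAS 4.60 ± 0.42 on the log2 scale (edgeR adjusted p = 0.00298 and 0.00114). HSC3 minus SAS was 1.69 ± 0.45 (edgeR adjusted p = 0.0286), a call lost without either HSC4 library or the HPLM library of HSC3 or SAS (adjusted p from 0.0548 to 0.163), with 0.95 and 1.11 without the latter 2. HK1 was lowest in SAS, 1.19 ± 0.13 from HSC3 and 0.90 ± 0.13 from HSC4 (edgeR adjusted p = 0.00173 and 0.00384), while HSC3 minus HSC4 did not pass (0.29 ± 0.13, edgeR adjusted p = 0.119).

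PKM was highest in HSC4 and lowest in SAS, with 0.91 ± 0.10 between them (edgeR adjusted p = 0.00165). HSC3 lay between, at 0.53 ± 0.10 from SAS and −0.38 ± 0.10 from HSC4 (edgeR adjusted p = 0.00846 and 0.0265). The second of these calls was lost without any 1 library (adjusted p from 0.0550 to 0.132) and the first without either SAS library (0.0594 and 0.0850). PFKP was highest in HSC3, 0.95 ± 0.12 from HSC4 and 0.56 ± 0.12 from SAS (edgeR adjusted p = 0.00297 and 0.0145), the latter call lost without the HPLM library of HSC3 or of SAS (0.0921 and 0.123). Its HSC4 minus SAS difference of −0.39 ± 0.12 (edgeR adjusted p = 0.0433) was lost without any 1 library of those lines (0.0626 to 0.292), and was −0.26 without SAS in DMEM.

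LDHA stepped down from HSC3 to HSC4 to SAS, with 0.58 ± 0.15 and 0.48 ± 0.15 between neighbours (edgeR adjusted p = 0.0272 and 0.0436). GAPDH and ENO1 were lower in HSC4 than in both other lines. HSC3 minus HSC4 was 0.52 ± 0.10 for GAPDH and 0.77 ± 0.12 for ENO1 (edgeR adjusted p = 0.00961 and 0.00545), and HSC4 minus SAS was −0.59 ± 0.10 and −0.58 ± 0.12 (edgeR adjusted p = 0.00584 and 0.0119). SLC2A1 was higher in HSC4, −0.71 ± 0.17 as HSC3 minus HSC4 and 0.77 ± 0.17 as HSC4 minus SAS (edgeR adjusted p = 0.0208 and 0.0145). Without the HPLM library of HSC4 the F-test calls of GAPDH, ENO1 and SLC2A1 were lost, and that of GAPDH also without the DMEM library of HSC4, while that of LDHA passed without any 1 library. PFKFB4 was lower in SAS than in HSC3 (1.53 ± 0.30, edgeR adjusted p = 0.0105), an F-test call lost without either HSC3 in DMEM or SAS in HPLM. PFKFB2, PDHA1 and PDHB passed the F test too, and each of these calls was lost without any 1 library. That of PDHB was also lost with no scaling factor. The 12 genes that did not pass among lines were SLC2A3, HK2, GPI, PGM1, PFKL, TIGAR, ALDOA, TPI1, PGAM1, LDHB, PDK1 and PDK3.

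Neighbouring pathways were read from lists of other genes, in which edgeR called 0 tested genes between media. The pentose phosphate pathway, which branches off to make NADPH and ribose, had a median log2 fold change of −0.22 (10 tested genes of 11). In all 3 lines 5 were lower (background 17.2%) and 2 higher (background 16.9%). At an unadjusted p under 0.05, 3 were lower (background 4.55%) and 1 was higher (background 5.57%). PRPS1, which makes activated ribose for nucleotides, had a log2 fold change of 0.36 ± 0.10.

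Of the regulators of glycolytic transcription 15 of 18 were tested, with a median of 0.05. At an unadjusted p under 0.05, 0 were lower (background 4.55%) and 2 were higher (background 5.57%). These were EGLN3 and EGLN1, oxygen-sensing hydroxylases that mark HIF for destruction and are themselves HIF targets. EGLN3 stood at 6.49 and 27.4 CPM in HSC3, 3.77 and 7.46 CPM in HSC4 and 2.21 and 3.02 CPM in SAS (edgeR log2 fold change 1.26 ± 0.32 SE, adjusted p = 0.381), and EGLN1 had 0.45 ± 0.12. Both were higher in HPLM in every line. The rest of the pyruvate dehydrogenase complex and the pyruvate carriers had a median of 0.03 (9 tested), with the E3 subunit DLD at 0.27 ± 0.09 and PDPR, a phosphatase regulator, at −0.32 ± 0.11. Other glycolysis and pyruvate genes (13 tested of 31) had a median of 0.12, with BSG, the chaperone of the lactate carriers, at 0.21 ± 0.09 and the transporter SLC2A12 at 1.02 ± 0.49.

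The citric acid cycle had a median of 0.04 (18 genes; IDH3B 0.21 ± 0.08, FH −0.19 ± 0.10). Glycogen metabolism had 0.00 (12 genes; PGM2 0.23 ± 0.11, PYGB −0.15 ± 0.09), and the side branches −0.08 (13 genes; GLO1, which clears methylglyoxal, 0.44 ± 0.11, and AKR1B1 0.14 ± 0.08). Proliferation markers (6 genes) had a median of −0.13, with PCNA at −0.19 ± 0.08 and MCM2 at −0.14 ± 0.10, and their part in these differences was not tested.

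**Figure D4:**
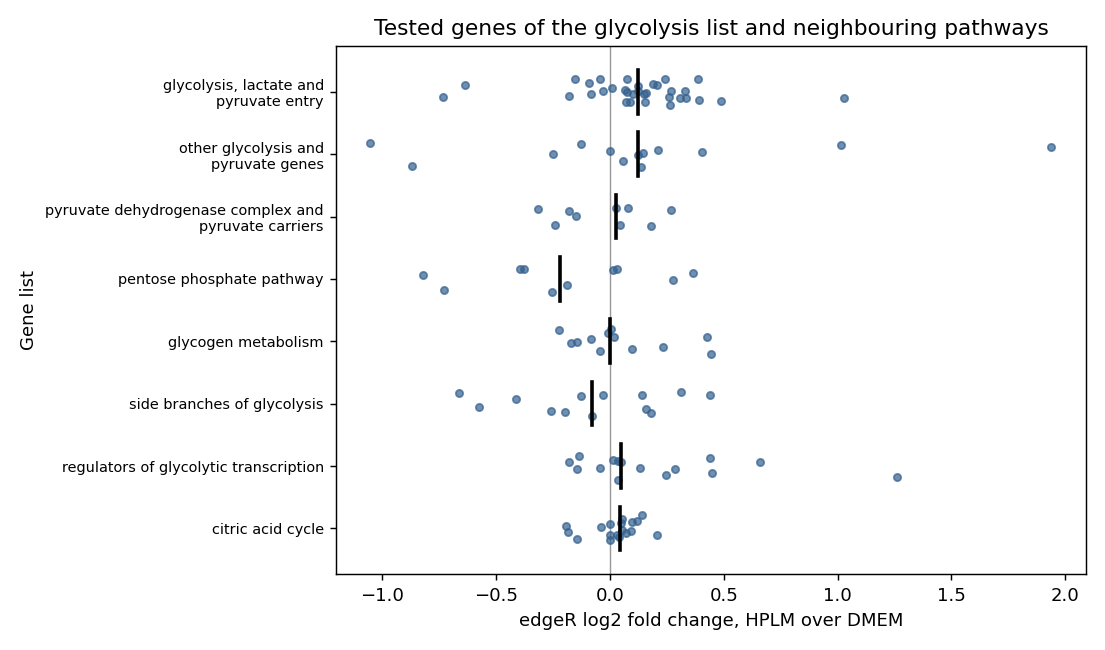
Each point is the edgeR log2 fold change of HPLM over DMEM of 1 tested gene and each black bar a list median, for the glycolysis, lactate and pyruvate entry genes and 7 neighbouring lists. The bar of the first list lies at 0.12 and that of the pentose phosphate pathway at −0.22.

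Promoters were examined because HIF-1 is known to bind a core of ACGTG. The 250 bases before a RefSeq start (GRCh38.p14) were read on both strands for the 31 of 34 genes with an entry. The start nearest to that of the leading protein-coding transcript was taken. For PGAM1, ENO3, PFKM and PDHA1 it still lay 1658, 2460, 3417 and 11655 bases from the transcript start. For SLC2A1, ALDOC, PFKP and GAPDH it lay 308, 369, 450 and 510 bases away, also further than the window is long. ACGTG was in 13 of 31 (41.9%), against 18.5% of 35116 promoter windows of this length. Those windows were not matched for base content or expression, and the difference was not tested. The E-box CACGTG, which contains it, was in 4 of 31 (12.9%, against 6.35%). GCGTG was in 12 of 31 (38.7%, against 32.2%). Among the 7 genes higher in HPLM at an unadjusted p under 0.05, ALDOA, PFKFB3, PGK1, ENO2 and SLC16A3 held ACGTG in the window, and LDHA and PFKP did not. LDHA held GCGTG, and PFKP held neither. A match is a run of letters and not evidence of binding, and its lack says nothing about the factor.

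For 3 of these genes ACGTG lies in the part of the window ahead of the first exon that GENCODE 29 has within it. That part is printed to show the setting of the motif, in lower case with ACGTG or its reverse complement CACGT in capitals (plus strand, 5′ to 3′, RefSeq, GRCh38.p14). The stretches are chrX:78103998-78104173 for PGK1, chr16:30065510-30065672 for ALDOA and chr17:82228792-82229031 for SLC16A3. They overlap no annotated exon but lie inside the annotated gene spans, since longer transcripts of all 3 genes start upstream. PGK1 and SLC16A3 hold 2 matches to ACGTG each and ALDOA 1.
PGK1 promoter: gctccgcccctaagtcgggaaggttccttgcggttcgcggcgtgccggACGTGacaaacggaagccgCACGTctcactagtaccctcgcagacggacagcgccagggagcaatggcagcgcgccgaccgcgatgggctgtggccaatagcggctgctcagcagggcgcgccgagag
ALDOA promoter: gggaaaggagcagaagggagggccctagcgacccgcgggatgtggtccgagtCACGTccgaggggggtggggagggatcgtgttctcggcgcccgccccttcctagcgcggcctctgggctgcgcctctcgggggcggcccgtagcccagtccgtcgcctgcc
SLC16A3 promoter: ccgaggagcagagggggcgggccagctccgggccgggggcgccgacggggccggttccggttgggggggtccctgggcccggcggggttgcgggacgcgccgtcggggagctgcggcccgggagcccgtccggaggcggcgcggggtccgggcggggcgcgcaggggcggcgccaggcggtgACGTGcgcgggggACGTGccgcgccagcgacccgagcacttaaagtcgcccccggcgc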

How the data were processed

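Strand-specific libraries of polyadenylated RNA were read on a DNBSEQ instrument, per the labels. The submitters' processing notes name FastQC, kallisto and hg38, with versions not given in the sources used here. The authors deposited expected counts (scaled TPM, that is, estimated counts with transcript length taken out) for each transcript, in 1 table. Its DMEM columns name a line and no medium and were matched by line, and 0 columns of sample values were left unused.

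Of 161149 rows, 1312 repeated a transcript and were dropped, and 6878 transcripts with no symbol (0.362% to 0.479% of a library) were left out. Sums per symbol were rounded. Genes passed filterByExpr (minimum count 10, minimum total 15), TMM scaling was used, and edgeR 4.0.16 (R 4.3.3) fitted line and medium by quasi-likelihood with 2 residual degrees of freedom. Alternatives used limma 3.58.1 and DESeq2 1.42.0. P-values were adjusted by Benjamini-Hochberg over 13236 genes. An SE is the size of the log2 fold change over the root of F, and a ratio within a line is a difference of log2 CPM (prior count 2) with no test. Deviations from the mean of a medium correlated at 0.779 to 0.805 between the libraries of a line, which pairs them. The fits were also run on simulated counts, and the outcome is not reported here.

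The genes and lists were chosen with earlier results of these data known. Values per library are given for genes with an unadjusted p under 0.05 between media, the highest gene of each family and the 5 with the smallest F-test p among lines, and the 2 genes with the smallest p and a mean of at least 1 CPM are named from every other list. Values per library of HKDC1, PDK1 and EGLN3 were added after they were seen. From the pentose phosphate list 1 gene that the rule names is not reported here.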

Additional observations from a re-analysis of the deposited data

Results flagged for a closer look

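For 3 genes the log2 ratio of HPLM over DMEM was at least 0.5 in 1 line and at or below −0.5 in another. HKDC1 had 0.51 in HSC4 and −2.18 in HSC3, at under 2.5 CPM in each of these libraries. PFKFB4 had 0.50 in HSC4 and −0.56 in HSC3. ALDOC had 1.06 in HSC3 and −0.79 in SAS, at low levels of 2.83 and 6.002 CPM in HSC3 and 1.72 and 0.955 CPM in SAS. In HSC3 ALDOC-208, a transcript not classed as protein coding, took an estimated 0% of ALDOC in DMEM and 46.1% in HPLM. Before scaling that was 0 and 2.665 CPM, so much of the HSC3 difference lay in this transcript. With 1 library per line and medium, the difference between lines was not tested.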

How the results depend on the processing

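No alternative called any of the 33 genes between media. Over all genes 1 was called, and 0 with upper-quartile scaling, with no low-count filter, with limma-trend and with no replicate block, against 9 with limma-voom, 127 with DESeq2 and 0 to 4 leaving out a line. The genes higher at an unadjusted p under 0.05 numbered 7, and 3 with no scaling factor and 3 to 6 leaving out a line; those lower numbered 1, and 2 with no scaling factor and 1 to 2 leaving out a line. With no replicate block both counts were 0, and over all genes 59 passed instead of 1339. Called among lines were 21, and 12 to 17 leaving out a library. By pair of lines these counts were 12, 16 and 18, and 4 to 10, 5 to 12 and 8 to 19 leaving out a library. The summed level of the 34 genes reversed to −0.0319 points without HSC3, and its range was −0.0319 to 0.131 points leaving out a line.

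Some log2 fold changes changed sign, among them HKDC1 (−0.73 with all libraries), CD14 (0.30) and PDK3 (0.27). Leaving out a line gave SLC2A1 −0.23 to 0.10, SLC2A3 −0.26 to 0.0754, HK1 −0.0325 to 0.16, HKDC1 −0.799 to 0.44, PGM1 −0.19 to 0.00792, PFKM −0.00450 to 0.15, PFKFB4 −0.55 to 0.0335, ALDOC −0.28 to 0.37, ENO3 −0.0364 to 0.22, PDK2 −0.13 to 0.27, PDK3 −0.13 to 0.56, PDHB −0.0514 to 0.0628 and CD14 −0.16 to 0.65. With no replicate block SLC2A1 was 0.0360 and SLC2A3 0.00483. With protein-coding transcripts of the 34 genes alone, an alternative chosen after seeing the data, SLC2A3 was 0.27, PFKL −0.0638 and ALDOC −0.0476, and with no scaling factor PDHB was −0.0391. HKDC1 did not pass the filter on low counts without HSC4 or with protein-coding transcripts alone. The cause was not tested. Depth limits HKDC1, SLC2A3 and PDK4, which lie within a few CPM of 0.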
